A study of Neurospora crassa with 4 samples.

Results

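The genes described here code for histones and for the proteins that deposit, modify, read or move them. They were picked by the words that describe each gene in the deposited tables, namely histone, chromatin, bromodomain, SNF2, nucleosome, SAGA and SET domain, and descriptions that also name kinases, DNA repair, ubiquitin, mitochondria or RNA polymerase were to be left out, of which there were 0. The rule took 49 of 9691 rows, and all 49 had an FPKM (fragments mapped to a gene, normalized for transcript length and library size) of at least 1 in at least 1 library, as did 7896 genes in all. By their descriptions the 49 genes comprise 8 histones, 5 histone chaperones, 9 proteins of acetylase complexes, 7 deacetylases, 6 methylases, 2 demethylases, 9 remodelers and 3 other chromatin proteins.

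The study asked how *Neurospora crassa*, a filamentous fungus, responds to staurosporine (STS), an inhibitor of protein kinases that kills its cells, and what a strain without the zinc cluster transcription factor gene *czt-1* does differently. The 4 libraries are Δ*czt-1* with STS, Δ*czt-1* with DMSO, wild-type (WT) with STS and WT with DMSO, 1 library each. All cultures were grown from conidia in minimal medium for 6 h at 26° in constant light and then received 20 μM STS, or DMSO, the solvent, for 1 h. Δ*czt-1* is a single deletion strain, so an effect of the deletion and of anything else that sets this strain apart cannot be told apart.

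Because each group is 1 library, no value has a replicate error, no difference below has a replicate check and no test was run. The number of reads per library is unknown, so counting error cannot be given either. Each is a bulk library, in which less RNA per cell and fewer cells of a kind cannot be told apart. The 3 tables repeat the WT DMSO and the Δ*czt-1* DMSO libraries, with equal values in 9691 of 9691 rows each. The deleted gene, *czt-1* (NCU09974), was listed at 1.54 FPKM in Δ*czt-1* with STS and 2.26 FPKM in Δ*czt-1* with DMSO, against 384 FPKM in WT with STS and 19.7 FPKM in WT with DMSO. The summed FPKM over all genes ran between 550288 and 1072129, and the 100 highest genes took 34.1 to 56.6% of it, with the larger sums and shares in both DMSO libraries.

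In a nucleosome, DNA is wrapped around a core of H2A, H2B, H3 and H4, and the linker histone H1 binds where the DNA enters and leaves. Chaperones hand histones to the DNA, acetylases and methylases add marks that deacetylases and demethylases remove, and remodelers use ATP to slide, evict or exchange nucleosomes. In *N. crassa* this machinery is best known for DNA methylation, which depends on methylation of H3 at lysine 9 by DIM-5 and on its reader, heterochromatin protein 1 (HP1).

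The histone genes were among the most strongly expressed in every library, and the balance between them was not the same in the 4 libraries. With STS, on the scale as deposited, the H2A and H2B genes stood higher in Δ*czt-1* and lower in WT than with DMSO, while the H3 and H4 genes stood lower in both strains. The *hH2B* gene (NCU02435) had 6838 FPKM with STS and 4240.2 FPKM with DMSO in Δ*czt-1* cells, and 3639.7 FPKM with STS and 4674.7 FPKM with DMSO in WT cells. Expression of *hH2A* (NCU02437), which codes for the partner of H2B in the dimer, was 4465 FPKM with STS and 3614 FPKM with DMSO in Δ*czt-1* and 3082 FPKM with STS and 4254 FPKM with DMSO in WT. For both genes the Δ*czt-1* STS library was the highest of the 4 and the WT STS library the lowest.

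The genes of the H3-H4 tetramer followed another order. The *hH3* gene (NCU01635) had 1913 FPKM with STS and 3289 FPKM with DMSO in Δ*czt-1*, and 2215 FPKM with STS and 3279 FPKM with DMSO in WT. Its neighbour *hH4-1* (NCU01634), next to it in the NC12 reference annotation, had 877 FPKM with STS and 1522 FPKM with DMSO in Δ*czt-1*, and 1038 FPKM with STS and 1199 FPKM with DMSO in WT. The other H4 gene, *hH4-2* (NCU00212), had 736 FPKM with STS and 873 FPKM with DMSO in Δ*czt-1*, and 768 FPKM with STS and 1110.2 FPKM with DMSO in WT. All 3 genes were lowest in the Δ*czt-1* STS library, where *hH2A* and *hH2B* were highest. The division of reads between *hH4-1* and *hH4-2* is uncertain, since no source used here says how reads that fit both H4 genes were counted.

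On the scale of log2(FPKM + 1), *hH2B* differed between STS and DMSO by 0.69 in Δ*czt-1* and by -0.36 in WT, and *hH2A* by 0.30 in Δ*czt-1* and by -0.46 in WT. The change of *hH3* was -0.78 in Δ*czt-1* and -0.57 in WT, that of *hH4-1* was -0.79 and that of *hH4-2* -0.25 in Δ*czt-1*, and in WT these H4 genes had -0.21 and -0.53. In no core histone gene did a staurosporine change reach 2-fold on the scale as deposited. Of all genes, 18.2% were at least 2-fold higher and 19.6% lower in Δ*czt-1*, and 12.8% higher and 14% lower in WT. With only 5 core genes, little can be read from their staurosporine changes staying below 2-fold. The direction of such changes depends on how libraries are scaled: with every library brought to the same FPKM sum, all 5 core genes were higher with STS in WT, with a median of 0.45 in place of -0.46, *hH2B* reached 1.36 in Δ*czt-1*, and *hH3* and *hH4-1* kept a lower value only in Δ*czt-1*, with -0.11 and -0.12.

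A ratio of genes within a library does not depend on that scaling. The summed FPKM of *hH2A* and *hH2B* over that of *hH3*, *hH4-1* and *hH4-2* was 3.21 in Δ*czt-1* with STS and 1.38 in Δ*czt-1* with DMSO, against 1.67 in WT with STS and 1.60 in WT with DMSO. The Δ*czt-1* STS library thus stood apart, and the other 3 lay between 1.38 and 1.67. Within the dimer, *hH2B* over *hH2A* was 1.53 in Δ*czt-1* with STS and 1.17 with DMSO, against 1.18 in WT with STS and 1.10 with DMSO. Within the tetramer, *hH3* over both H4 genes was 1.19 with STS and 1.37 with DMSO in Δ*czt-1*, and 1.23 with STS and 1.42 with DMSO in WT, so that it was lower with STS by a like amount in both strains. All 5 core genes are short, with a median gene length of 1407 bases in the reference annotation.

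**Figure D1:**
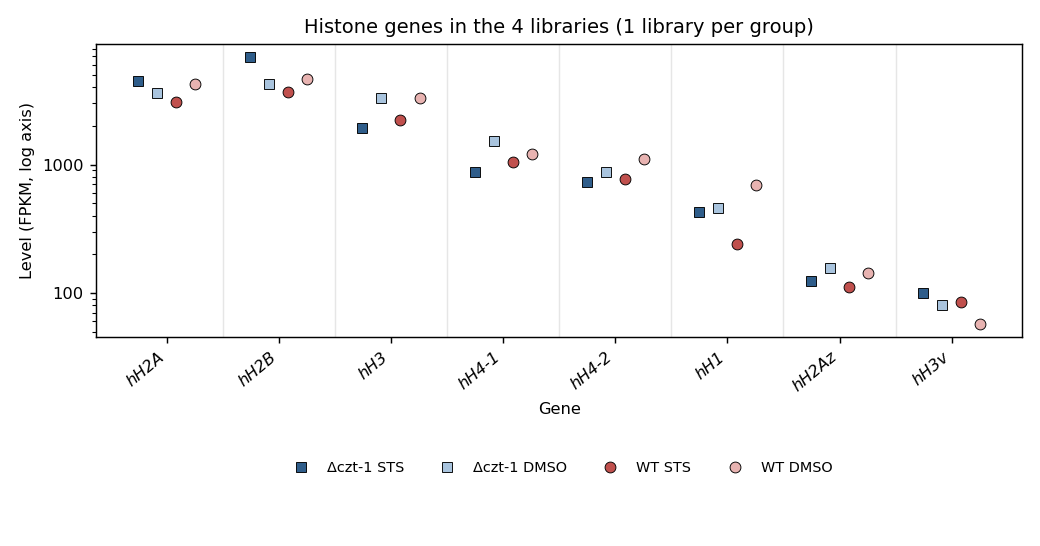
FPKM of the 8 histone genes on a log axis, 1 point per library, with squares for Δczt-1, circles for WT, dark colors for STS and light colors for DMSO. *hH2A* and *hH2B* are highest in Δczt-1 with STS, *hH3* and *hH4-1* are lower with STS in both strains, and *hH1* is lowest in WT with STS at 240 FPKM.

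The linker histone gene *hH1* (NCU06863) showed the largest difference of any histone. It was at 425 FPKM with STS and 461 FPKM with DMSO in Δ*czt-1*, and at 240 FPKM with STS and 694 FPKM with DMSO in WT. The level in WT with STS was the lowest and that in WT with DMSO the highest, with both Δ*czt-1* libraries between them. The log2 change with STS was -0.12 in Δ*czt-1* and -1.53 in WT, a difference between the strains of 1.41, and in WT it was still -0.62 with the libraries at the same FPKM sum. The 5 core genes together had 34.9 times the FPKM of *hH1* with STS and 29.4 times with DMSO in Δ*czt-1*, against 44.8 times with STS and 20.9 times with DMSO in WT.

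The histone variants differed less than *hH1*. The H2A.Z gene *hH2Az* (NCU05347), whose product replaces H2A in nucleosomes near many promoters in yeast, had 124 FPKM with STS and 156 FPKM with DMSO in Δ*czt-1*, and 112 FPKM with STS and 143 FPKM with DMSO in WT. An H3 variant gene, *hH3v* (NCU00145), had 101 FPKM with STS and 80.1 FPKM with DMSO in Δ*czt-1*, and 84.5 FPKM with STS and 57.7 FPKM with DMSO in WT. On the scale as deposited it was the only one of the 8 histone genes that was higher with STS in both strains, by 0.33 in Δ*czt-1* and 0.54 in WT. Relative to it, *hH3* stood at 19.0 with STS and 41.1 with DMSO in Δ*czt-1*, and at 26.2 with STS and 56.8 with DMSO in WT. A further H4 variant gene, *hH4v* (NCU04338), is described as a hypothetical protein and is outside the rule, and it had 11.7 FPKM with STS and 15.3 FPKM with DMSO in Δ*czt-1* and 10.4 FPKM with STS and 15.5 FPKM with DMSO in WT.

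Core histones are made mostly while DNA is replicated, so genes described with DNA replication were set beside them. Of 28 such genes, 1 was at least 2-fold higher and 1 at least 2-fold lower with STS in Δ*czt-1*, where 18.2% and 19.6% of all genes were. In WT 0 were higher and 2 lower, against 12.8% and 14% of all genes. Their median change was -0.19 in Δ*czt-1* and 0.14 in WT, beside 0.00 and 0.11 for all genes. The gene for the replication clamp, *pcn* (NCU09239), had 105 FPKM with STS and 182 FPKM with DMSO in Δ*czt-1* and 91.1 FPKM with STS and 200 FPKM with DMSO in WT. That of a GINS complex subunit, *psf-2* (NCU06322), had 35.8 FPKM with STS and 44.6 FPKM with DMSO in Δ*czt-1* and 33.9 FPKM with STS and 71.6 FPKM with DMSO in WT. The gene of another GINS subunit, *psf-1* (NCU02631), was the one that was 2-fold lower in Δ*czt-1*, by -1.38, and that of DNA polymerase delta subunit 4 (NCU03528) the one that was higher, by 1.85.

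Among the chaperones, a pair was higher with STS in both strains by more than 2-fold. NCU01740, described as *chz-1*, whose yeast counterpart carries H2A.Z-H2B dimers, had 380 FPKM with STS and 123 FPKM with DMSO in Δ*czt-1*, and 377 FPKM with STS and 150 FPKM with DMSO in WT. The gene *cac-2* (NCU08357) codes for a subunit of chromatin assembly factor 1, which places new H3-H4 on replicated DNA, and it had 64.2 FPKM with STS and 24.9 FPKM with DMSO in Δ*czt-1*, and 45.8 FPKM with STS and 17.0 FPKM with DMSO in WT. The log2 changes were 1.62 in Δ*czt-1* and 1.32 in WT for NCU01740, and 1.33 in Δ*czt-1* and 1.38 in WT for *cac-2*. In both genes each STS library lay above each DMSO library.

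The 3 other chaperones did not share that pattern. The gene for the nucleosome assembly protein NAF-1, *naf-1* (NCU01438), had 563 FPKM with STS and 887 FPKM with DMSO in Δ*czt-1*, and 901 FPKM with STS and 858 FPKM with DMSO in WT. Expression of *asf-1* (NCU09436), the gene of a chaperone of H3-H4, was 212 FPKM with STS and 153 FPKM with DMSO in Δ*czt-1*, and 143 FPKM with STS and 150 FPKM with DMSO in WT. For both genes 3 libraries were close to each other and Δ*czt-1* with STS stood apart, below the rest for *naf-1* and above them for *asf-1*. On the scale as deposited NCU08161, described as RTT106, a chaperone of H3-H4 in yeast, was lower with STS in both strains, with 7.77 FPKM with STS and 14.8 FPKM with DMSO in Δ*czt-1* and 11.3 FPKM with STS and 19.3 FPKM with DMSO in WT. At the same FPKM sum its changes were -0.23 in Δ*czt-1* and 0.12 in WT.

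The genes of acetylases and their complexes were mostly lower in WT with DMSO than elsewhere. In 5 of these 9 genes WT with DMSO was the lowest of the 4 libraries, as in 19 of all 49 chromatin genes, against 30.9% of the 7896 genes. The clearest case was *ngf-1* (NCU10847), which codes for GCN5, the catalytic subunit of the SAGA complex that acetylates H3. It had 16.7 FPKM with STS and 8.58 FPKM with DMSO in Δ*czt-1*, and 11.4 FPKM with STS and 2.45 FPKM with DMSO in WT. The level in WT with DMSO was thus the lowest by far, and in both strains the STS library was the higher one, by 0.89 in Δ*czt-1* and 1.85 in WT. With DMSO, the difference between Δ*czt-1* and WT was 1.48.

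A histone acetyltransferase gene, *hat-5* (NCU02249), had 13.5 FPKM with STS and 13.8 FPKM with DMSO in Δ*czt-1*, and 15.0 FPKM with STS and 6.08 FPKM with DMSO in WT. Here 3 libraries were alike and WT with DMSO was low, which gave changes with STS of -0.04 in Δ*czt-1* and 1.18 in WT. The gene *hat-4* (NCU05218) is described as *esa-1*, which in yeast is the essential acetylase of H4, and it had 9.40 FPKM with STS and 10.7 FPKM with DMSO in Δ*czt-1*, and 15.5 FPKM with STS and 8.37 FPKM with DMSO in WT. A SAGA subunit gene, NCU04459, had 25.1 FPKM with STS and 21.5 FPKM with DMSO in Δ*czt-1*, and 22.5 FPKM with STS and 13.6 FPKM with DMSO in WT, again lowest in WT with DMSO.

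Opposite directions in the strains were found for *stk-18* (NCU01379), described as the Paf400 subunit of a histone acetylase complex. It had 6.23 FPKM with STS and 13.3 FPKM with DMSO in Δ*czt-1*, and 12.5 FPKM with STS and 7.44 FPKM with DMSO in WT. The changes with STS were -0.98 in Δ*czt-1* and 0.67 in WT, and their difference of -1.66 was the most negative of the 49 genes. NCU03834, a component of a histone acetyltransferase complex, had 13.6 FPKM with STS and 21.6 FPKM with DMSO in Δ*czt-1*, and 21.4 FPKM with STS and 15.9 FPKM with DMSO in WT. Its directions were also opposed on the scale as deposited. At the same FPKM sum they were not, with 0.007 in Δ*czt-1* and 1.27 in WT.

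The type B acetylase marks new H4 before it is deposited. The gene of its catalytic subunit, *hat-1* (NCU06472), had 40.7 FPKM with STS and 20.6 FPKM with DMSO in Δ*czt-1*, and 22.4 FPKM with STS and 19.9 FPKM with DMSO in WT. Only the Δ*czt-1* STS library differed from the others, by 0.95 from its DMSO library. The gene of the other subunit, *cac-3* (NCU06679), whose product also belongs to the complex that methylates H3 at lysine 27 in *N. crassa*, was nearly level at 77.4 FPKM with STS and 81.6 FPKM with DMSO in Δ*czt-1*, and 61.2 FPKM with STS and 65.0 FPKM with DMSO in WT. NCU09699, described as Spt10, an activator of core histone genes in yeast, had 20.5 FPKM with STS and 33.0 FPKM with DMSO in Δ*czt-1*, and 20.7 FPKM with STS and 32.0 FPKM with DMSO in WT. On the scale as deposited it was lower with STS by nearly the same amount in both strains. At the same FPKM sum its changes were -0.01 in Δ*czt-1* and 0.27 in WT.

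Deacetylases remove the acetyl marks that these enzymes add. Among the zinc-dependent ones, *hda-4* (NCU07018), described as HosB, had 21.8 FPKM with STS and 8.78 FPKM with DMSO in Δ*czt-1*, and 14.1 FPKM with STS and 8.07 FPKM with DMSO in WT. It was higher with STS in both strains, by 1.22 in Δ*czt-1* and 0.74 in WT. On the scale as deposited no other of the 7 deacetylase genes had a 2-fold change with STS. Of all genes, 18.2% were at least 2-fold higher and 19.6% lower in Δ*czt-1*, and 12.8% higher and 14% lower in WT. At the same FPKM sum 2 of the 7 were at least 2-fold higher in Δ*czt-1* and 6 in WT, counts to which these shares do not apply. The other 3 zinc-dependent genes leaned the other way in Δ*czt-1* on the scale as deposited. The gene *hda-1* (NCU01525), whose product works with HP1 at silent chromatin in *N. crassa*, had 9.26 FPKM with STS and 15.6 FPKM with DMSO in Δ*czt-1*, and 14.8 FPKM with STS and 12.8 FPKM with DMSO in WT. The RPD3 gene *hda-3* (NCU00824) and *hda-2* (NCU02795) had changes of -0.49 and -0.31 in Δ*czt-1*, and of 0.23 and 0.27 in WT.

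The sirtuins are deacetylases that consume NAD. The gene *nst-5* (NCU00203) had 33.6 FPKM with STS and 20.7 FPKM with DMSO in Δ*czt-1*, and 21.3 FPKM with STS and 27.9 FPKM with DMSO in WT. On the scale as deposited its directions were opposed in the other sense, with a difference between the strains of 1.05. With the libraries at the same FPKM sum it was higher with STS in both strains, by 1.32 in Δ*czt-1* and 0.50 in WT. Expression of *nst-1* (NCU04737), the *sir2* gene, was 12.1 FPKM with STS and 10.9 FPKM with DMSO in Δ*czt-1*, and 18.9 FPKM with STS and 15.5 FPKM with DMSO in WT. It was lower in Δ*czt-1* than in WT under both treatments, by -0.60 with STS and -0.48 with DMSO. The gene *nst-3* (NCU03059) stayed between 13.3 and 18.4 FPKM in the 4 libraries. Of the 4 sirtuin genes whose descriptions the rule does not catch, 3 passed the FPKM filter, and *nst-6* (NCU05973), described as sirtuin-5, was the one with a large change, with 13.8 FPKM with STS and 0.81 FPKM with DMSO in Δ*czt-1* and 4.88 FPKM with STS and 0.43 FPKM with DMSO in WT.

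Summed over their genes, acetylase complexes had 2.08 times the FPKM of deacetylases with STS and 2.32 times with DMSO in Δ*czt-1*, and 1.92 times with STS and 1.80 times with DMSO in WT. The *cac-3* gene was the largest part of the acetylase sum, with 77.4 of 223 FPKM in Δ*czt-1* with STS. The sirtuin genes outside the rule are not in the deacetylase sum. The median change of the 9 acetylase genes with STS was -0.07 in Δ*czt-1* and 0.67 in WT. That of the 7 deacetylase genes was -0.31 in Δ*czt-1* and 0.25 in WT, beside 0.00 and 0.11 for all genes. Relative to genes of like length, the WT medians were 0.26 for acetylases and -0.0099 for deacetylases, and those in Δ*czt-1* were -0.06 and -0.35. At the same FPKM sum all these medians were above 0, with 0.59 and 0.30 in Δ*czt-1* and 1.49 and 1.08 in WT.

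On the scale as deposited, none of the 8 methylase and demethylase genes was 2-fold apart in any comparison, where with STS 18.2% of all genes were 2-fold higher and 19.6% lower in Δ*czt-1*, and 12.8% higher and 14% lower in WT. With the libraries at the same FPKM sum, 1 of the 8 was at least 2-fold higher with STS in Δ*czt-1* and 4 in WT. The median change of all genes then was 0.60 in Δ*czt-1* and 0.85 in WT, so the shares above do not apply to these counts. The gene *set-1* (NCU01206), whose product methylates H3 at lysine 4, had 14.5 FPKM with STS and 23.1 FPKM with DMSO in Δ*czt-1*, and 13.1 FPKM with STS and 15.1 FPKM with DMSO in WT. The gene *set-2* (NCU00269), for the methylase of lysine 36, had 4.72 FPKM with STS and 7.37 FPKM with DMSO in Δ*czt-1*, and 5.57 FPKM with STS and 3.95 FPKM with DMSO in WT. The lysine 9 methylase gene *dim-5* (NCU04402) had 5.77 FPKM with STS and 6.77 FPKM with DMSO in Δ*czt-1*, and 4.27 FPKM with STS and 4.55 FPKM with DMSO in WT. All 3 genes were highest in Δ*czt-1* with DMSO.

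The remaining 3 methylases did not share 1 direction. NCU06266 had 11.9 FPKM with STS and 19.5 FPKM with DMSO in Δ*czt-1*, and 14.0 FPKM with STS and 17.8 FPKM with DMSO in WT, lower with STS in both strains on the scale as deposited. At the same FPKM sum its changes were -0.04 in Δ*czt-1* and 0.53 in WT. NCU08551, described as *set-9*, a name that the reference annotation gives to another locus, was higher with STS in both strains, with 22.7 FPKM with STS and 15.8 FPKM with DMSO in Δ*czt-1* and 22.1 FPKM with STS and 19.2 FPKM with DMSO in WT. The SET domain gene NCU06658 stayed between 5.09 and 7.09 FPKM. Both demethylase genes, the JmjC gene NCU03505 and NCU09120, described as Aof2, were lowest in WT with DMSO and highest in WT with STS. NCU03505 had 13.2 FPKM with STS and 11.8 FPKM with DMSO in Δ*czt-1*, and 14.8 FPKM with STS and 9.18 FPKM with DMSO in WT.

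The remodelers moved most evenly as a group. All 9 were higher with STS than with DMSO in WT, with a median of 0.70, and with DMSO all 9 were above WT in Δ*czt-1*, with a median of 0.60, whereas the median change with STS in Δ*czt-1* was -0.0048 (0.65 with the libraries at the same FPKM sum). The 2 comparisons in which all 9 were higher share the WT DMSO library, which was the lowest of the 4 in 6 of the 9 genes. It was the lowest in 30.9% of all genes. In the longest of 5 classes of gene length, which holds 7 of the 9 remodelers, it was the lowest in 51.8% of genes. An INO80 complex gene, NCU01362, had 16.6 FPKM with STS and 22.0 FPKM with DMSO in Δ*czt-1*, and 21.9 FPKM with STS and 9.93 FPKM with DMSO in WT. The INO80 complex slides nucleosomes at promoters and at sites of DNA damage, and the genes of its actin-related subunits, *arp-5* (NCU06394) and *arp-8* (NCU06238), showed the same low library. Expression of *arp-5* was 33.9 FPKM with STS and 34.1 FPKM with DMSO in Δ*czt-1* and 37.3 FPKM with STS and 22.7 FPKM with DMSO in WT, and that of *arp-8* was 19.7 FPKM with STS and 19.1 FPKM with DMSO in Δ*czt-1* and 22.2 FPKM with STS and 12.0 FPKM with DMSO in WT.

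Opposed directions in the strains were seen, on the scale as deposited, for the genes of a pair of ATPases. The gene *crf4-1* (NCU03875), described as ISW1, which in yeast spaces nucleosomes, had 31.0 FPKM with STS and 55.4 FPKM with DMSO in Δ*czt-1*, and 43.0 FPKM with STS and 36.2 FPKM with DMSO in WT. The gene *crf3-1* (NCU06488) had 21.4 FPKM with STS and 39.9 FPKM with DMSO in Δ*czt-1*, and 34.4 FPKM with STS and 24.9 FPKM with DMSO in WT. In both genes Δ*czt-1* with DMSO was the highest library and Δ*czt-1* with STS the lowest. The changes with STS were -0.82 in Δ*czt-1* and 0.24 in WT for *crf4-1*, and -0.87 in Δ*czt-1* and 0.45 in WT for *crf3-1*. Relative to the median gene of like length, *crf4-1* was lower in both strains, by -0.77 in Δ*czt-1* and -0.17 in WT. The values of *crf3-1* then were -0.82 in Δ*czt-1* and 0.04 in WT. At the same FPKM sum both genes stayed opposed, with -0.16 and -0.22 in Δ*czt-1* and 1.13 and 1.33 in WT.

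The 3 other genes described as SNF2 family members were higher with STS in both strains. NCU04786 had the widest range of all 49 genes, 18 times between its highest and lowest library, with 25.8 FPKM with STS and 1.94 FPKM with DMSO in Δ*czt-1*, and 7.04 FPKM with STS and 1.43 FPKM with DMSO in WT. Its changes with STS were 3.19 in Δ*czt-1* and 1.73 in WT, and with STS it was 1.74 higher in Δ*czt-1* than in WT, the only 2-fold difference between the STS libraries among the 49 genes. NCU03652 was expressed at a low level, with 4.60 FPKM with STS and 2.69 FPKM with DMSO in Δ*czt-1*, and 4.24 FPKM with STS and 1.02 FPKM with DMSO in WT. The gene *crf2-1* (NCU08919) had 26.4 FPKM with STS and 18.8 FPKM with DMSO in Δ*czt-1*, and 22.9 FPKM with STS and 13.7 FPKM with DMSO in WT. The least variable remodeler gene was NCU08840, a remodeling complex subunit that stayed between 28.4 and 33.0 FPKM.

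**Figure D2:**
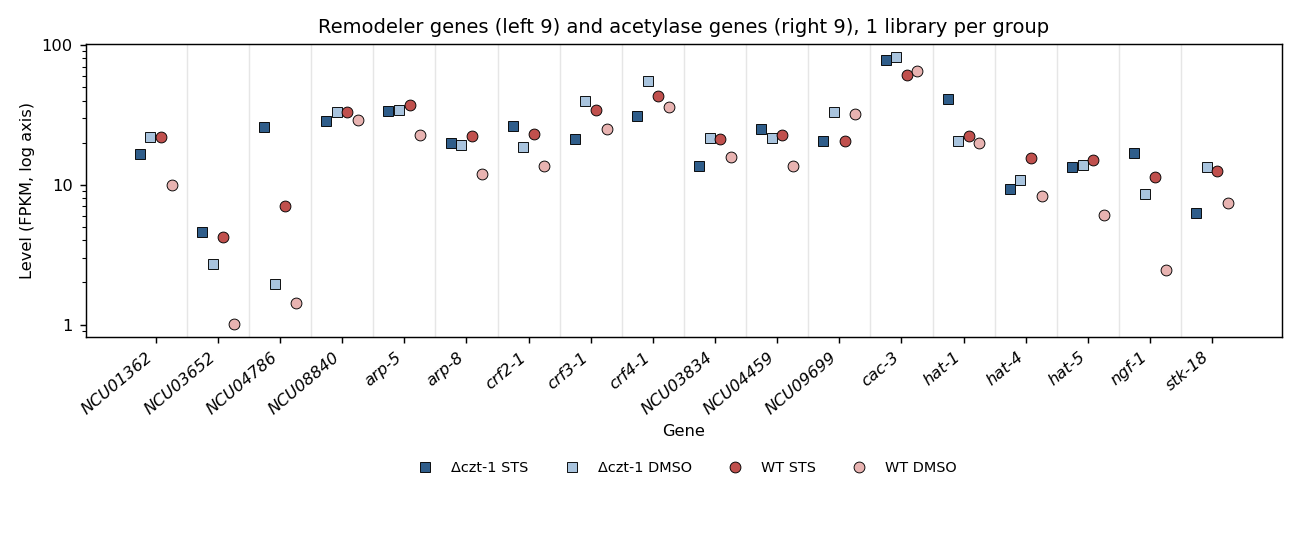
FPKM of the 9 remodeler genes and the 9 genes of acetylase complexes on a log axis, 1 point per library, marked as in the plot of the histone genes. WT with DMSO (light circles) is the lowest library for 6 remodeler and 5 acetylase genes, against 30.9% of all genes, and NCU04786 reaches 25.8 FPKM in Δczt-1 with STS.

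Of the 3 other chromatin proteins, HP1 binds H3 methylated at lysine 9. Its gene *hpo* (NCU04017) had 25.9 FPKM with STS and 54.1 FPKM with DMSO in Δ*czt-1*, and 35.7 FPKM with STS and 39.6 FPKM with DMSO in WT. NCU03096, which holds a bromodomain associated domain, had 2.91 FPKM with STS and 10.4 FPKM with DMSO in Δ*czt-1*, and 5.003 FPKM with STS and 10.3 FPKM with DMSO in WT. These were the only genes of the 49 at least 2-fold lower with STS in Δ*czt-1*, by -1.03 for *hpo* and -1.54 for NCU03096. With the libraries at the same FPKM sum the values were -0.38 and -0.99, and relative to genes of like length *hpo* had -0.94. NCU04238, a histone H1-binding protein, had 39.5 FPKM with STS and 42.8 FPKM with DMSO in Δ*czt-1*, and 32.3 FPKM with STS and 50.1 FPKM with DMSO in WT, which places its lowest and highest libraries as in *hH1*.

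Genes that work with these proteins but fall outside the rule were taken from lists. In a list of 7 genes for DNA methylation and heterochromatin, 0 had a 2-fold change with STS in either strain. Of all genes, 18.2% were at least 2-fold higher and 19.6% lower in Δ*czt-1*, and 12.8% higher and 14% lower in WT. The medians of the 7 genes were -0.44 in Δ*czt-1* and 0.23 in WT. The gene of the DNA methyltransferase, *dim-2* (NCU02247), had 6.78 FPKM with STS and 12.6 FPKM with DMSO in Δ*czt-1*, and 7.39 FPKM with STS and 7.29 FPKM with DMSO in WT. Of 2 further histone methylation genes, *set-3* (NCU01932) had 11.4 FPKM with STS and 26.0 FPKM with DMSO in Δ*czt-1*, and 16.4 FPKM with STS and 22.6 FPKM with DMSO in WT, and *set-7* (NCU07496), for the lysine 27 methylase, stayed between 1.85 and 3.06 FPKM. Among 9 further subunits and chaperones, NCU03064, described as the RSC subunit Rsc7, had 55.6 FPKM with STS and 20.0 FPKM with DMSO in Δ*czt-1* and 35.1 FPKM with STS and 16.9 FPKM with DMSO in WT, and it was at least 2-fold higher in both strains. NCU06491, described as a SWR1 complex protein, was at least 2-fold lower in Δ*czt-1*, by -1.13, as was *set-3*, also by -1.13.

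Counted over all 49 genes, staurosporine gave 4 genes at least 2-fold higher in Δ*czt-1*, where 18.2% of all genes were, and 2 genes at least 2-fold lower, where 19.6% were. In WT 7 genes were at least 2-fold higher, against 12.8% of all genes, and 1 gene, *hH1*, was at least 2-fold lower, against 14% of all genes. The 7 genes in WT were NCU01740, *cac-2*, *ngf-1*, *hat-5*, NCU01362, NCU03652 and NCU04786, and the 4 genes in Δ*czt-1* were NCU01740, *cac-2*, *hda-4* and NCU04786, so that 3 were higher in both strains. The share of 2-fold lower genes was therefore small in WT and in Δ*czt-1*. The share of 2-fold higher genes was below that of all genes in Δ*czt-1* and close to it in WT. With the libraries at the same FPKM sum, which moves the median change of all genes by 0.60 in Δ*czt-1* and 0.74 in WT, 12 genes were higher and 0 lower in Δ*czt-1*, and 29 were higher and 0 lower in WT. The median change of all genes then was 0.60 in Δ*czt-1* and 0.85 in WT. These counts therefore cannot be set beside the shares above, which are on the scale as deposited.

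The median change with STS was -0.16 in Δ*czt-1* and 0.23 in WT, beside 0.00 and 0.11 for all genes, and 30 of the 49 genes were lower in Δ*czt-1* while 30 were higher in WT. In 16 genes, 32.7%, the change was downward in Δ*czt-1* and upward in WT, as it was for 17.8% of all genes. The opposite pair of directions held for 5 genes, 10.2%, beside 12.2% of all genes. Of the 16 genes, 8 belong to acetylases and deacetylases and 5 to remodelers, and 0 are histones. This is on the scale as deposited, and some changes are near 0, as with -0.0048 for *arp-5* in Δ*czt-1*. At the same FPKM sum only *stk-18*, *hda-1*, *crf3-1* and *crf4-1* of the 16 genes stayed opposed, and the rest were higher in both strains. The histone genes *hH3* and *hH4-1*, outside the 16, were then lower in Δ*czt-1*, by -0.11 and -0.12, and higher in WT, by 0.34 and 0.70. Relative to genes of like length, *hda-1*, *hda-3*, *set-2*, NCU08840 and *crf4-1* were lower in both strains, with -0.21 for *hda-1* and -0.17 for *crf4-1* in WT. The genes *hat-5* and *arp-5* were then higher in both strains. The rest of the 16 stayed opposed, *stk-18* with 0.26 in WT. The staurosporine changes of the strains have no library in common.

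**Figure D3:**
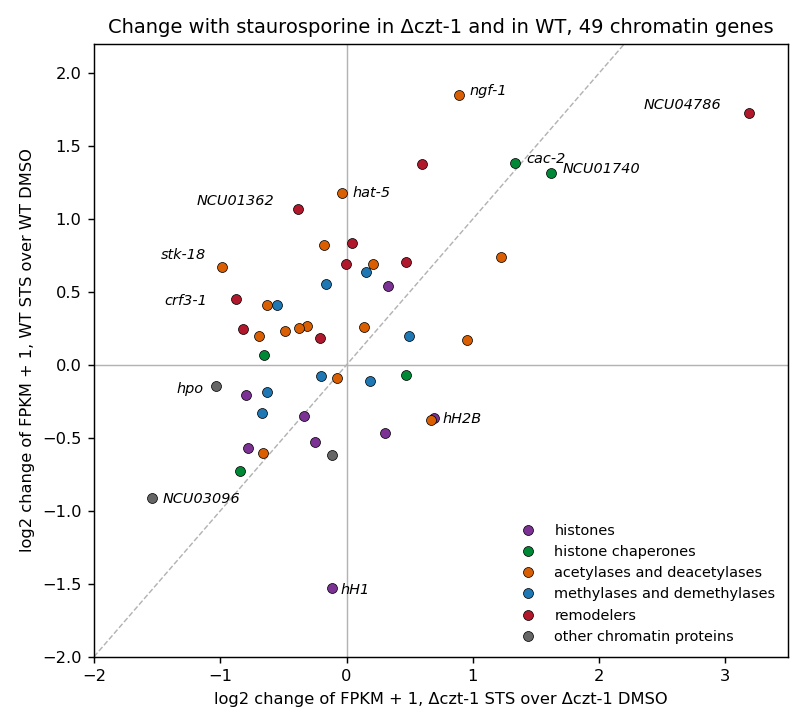
Change with staurosporine of the 49 genes on the scale as deposited, with Δczt-1 on the horizontal axis and WT on the vertical axis. Both axes are in log2 units of FPKM + 1, with 1 point per gene colored by role and a dashed line where the changes are equal. The upper left of the plot, lower in Δczt-1 and higher in WT, holds 16 genes, among them *stk-18*, *crf3-1* and NCU01362, while NCU04786, NCU01740 and *cac-2* are high in both strains.

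The difference between the strains in the staurosporine change, Δ*czt-1* minus WT, was at least 1 in log2 units for 4 genes, *hH1*, *hH2B*, *nst-5* and NCU04786, against 13.5% of all genes. It was -1 or lower for 6 genes, *stk-18*, NCU01362, *crf3-1*, *hat-5*, *crf4-1* and NCU03834, against 17.5% of all genes. The median of the 49 genes was -0.39, beside -0.07 for all genes. These differences were not tested.

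With DMSO, Δ*czt-1* had the higher level in 39 of the 49 genes, a share that was 55.3% among all genes. The median difference was 0.33, beside 0.05 for all genes. It was 0.60 for remodelers, 0.42 for acetylases, 0.36 for methylases and demethylases, and -0.07 for histones. At least 2-fold higher were 3 genes, *ngf-1*, *hat-5* and NCU01362, against 2.58% of all genes, and 0 genes were at least 2-fold lower, against 2.36%. With STS the median difference between the strains was -0.16 for remodelers, -0.01 for acetylases, -0.06 for methylases and demethylases, and 0.19 for histones. Around these medians genes lay on both sides, from -0.90 to 0.83 among the acetylases. With STS 1 gene was at least 2-fold higher in Δ*czt-1*, against 10.9% of all genes, and 0 were lower, against 12.2%. The highest library was Δ*czt-1* with DMSO for 21 of the 49 genes, 42.9%, and for 21.0% of all genes.

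**Figure D4:**
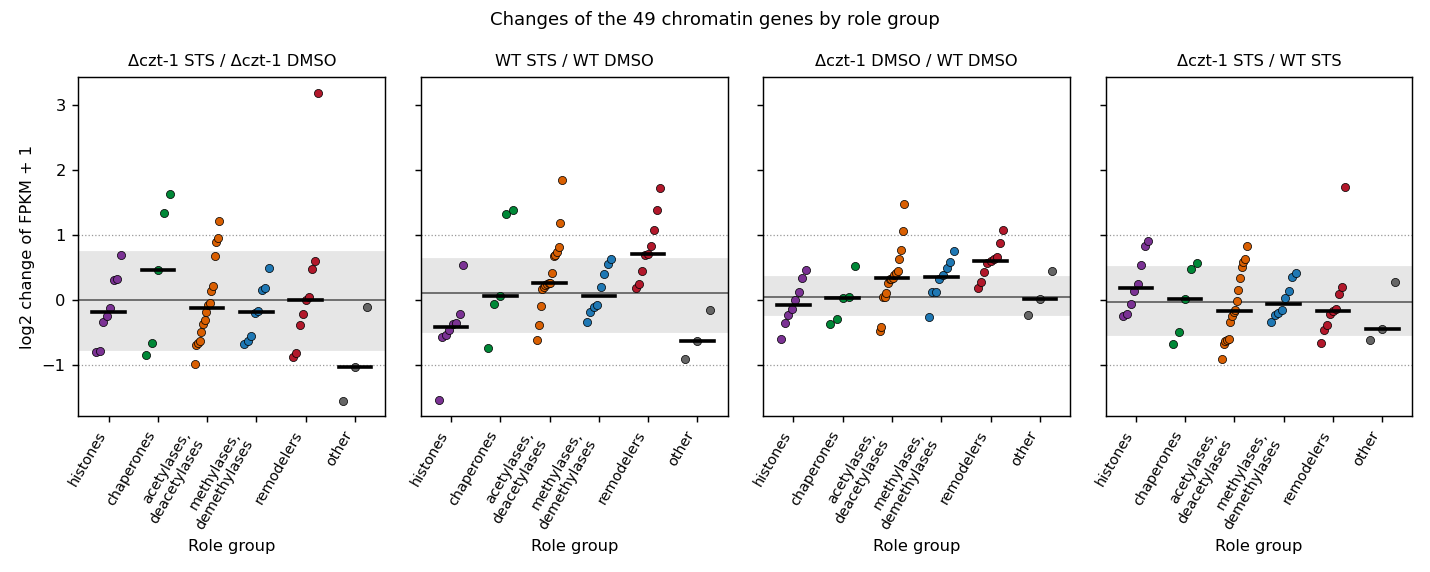
Log2 changes of FPKM + 1 of the 49 genes by role group in the 4 comparisons, 1 point per gene, with a black bar at each group's median, the median of all genes as a gray line, their middle 50% as a gray band and dotted lines at a 2-fold change. All 9 remodeler genes lie above 0 for WT STS over WT DMSO and for Δczt-1 DMSO over WT DMSO, comparisons that share the WT DMSO library.

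Gene length moved with these comparisons across the whole genome. When all genes with a length in the NC12 annotation were divided into 5 equal classes, the median change between Δ*czt-1* and WT with DMSO was -0.13 among the shortest and 0.35 among the longest, and that with STS in WT was -0.10 and 0.41. WT with DMSO was the lowest of the 4 libraries for 19.0% of the shortest genes and 51.8% of the longest. Chromatin genes are long, with a median of 3104 bases against 2356 for all genes, and 19 of the 49, including 7 of the 9 remodelers, are in the longest class. Over the 49 genes, Spearman's rho between length and change was 0.52 for Δ*czt-1* against WT with DMSO and 0.51 for STS in WT, beside 0.37 and 0.22 over all genes, which are not independent of each other and share these libraries.

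Each change was therefore also taken relative to the median gene of its length class. The median of the 49 genes then was 0.14 for Δ*czt-1* against WT with DMSO and -0.0099 for STS in WT. For the remodelers, 8 of 9 were still higher in Δ*czt-1* with DMSO, with a median of 0.28, and 7 of 9 were higher with STS in WT, with a median of 0.43. Of the 7 genes at least 2-fold higher with STS in WT, 3 were still so, with 1.61 for *ngf-1*, 1.42 for NCU01740 and 1.32 for NCU04786, while *cac-2* and NCU03652 had 0.97, *hat-5* had 0.77 and NCU01362 had 0.66. The value of *hH1* in WT was -1.52. In Δ*czt-1* the 4 higher genes were still at least 2-fold higher, NCU04786 by 3.24. The median strain difference of the 49 genes was -0.19 in place of -0.39, with 20 genes above 0 in place of 15. Spearman's rho between length and the strain difference was -0.42 over the 49 genes, beside -0.28 over all genes. How far length accounts for any of these differences was not tested.

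**Figure D5:**
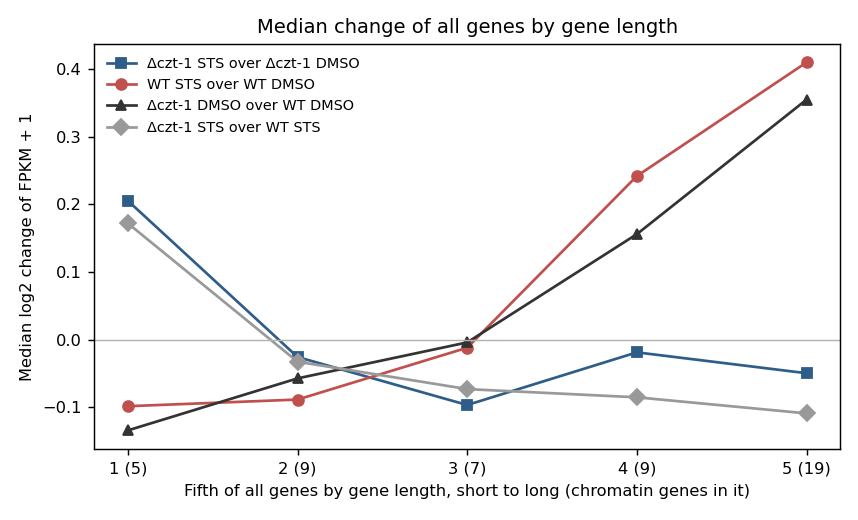
Median log2 change of FPKM + 1 of all genes in 5 classes of gene length, short to long, for the 4 comparisons, with the number of chromatin genes in each class in parentheses. The medians of Δczt-1 DMSO over WT DMSO and of WT STS over WT DMSO are higher in longer classes, reaching 0.35 and 0.41 in the longest, which holds 19 of the 49 genes.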

How the data were processed

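Oligo(dT)-purified mRNA of 4 cultures was sequenced, and per the submitters' processing notes TopHat2 2.0.4, Cufflinks 2.0.2 and Cuffdiff were used. No source used here gives the genome build. The authors deposited FPKM for pairs of libraries in 3 tables with decimal commas. The tables also hold the authors' fold changes, log2 ratios, statistics, p-values, q-values and calls, which were not used.

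A change is the difference of log2(FPKM + 1) between 2 libraries, computed for each gene that reached 1 FPKM in any of the 4 and counted at 2-fold, with Python 3.11.15 and pandas 2.3.3. Scripts were tested on simulated data. Roles were assigned from the deposited descriptions. Every histone gene was to be named and, in each other group and comparison, the 3 largest rises and 3 largest falls among genes that reached 10 FPKM in a library of the comparison, and further members are named for completeness. The members and lists were chosen with earlier results of these data known. From the lists, 3 loci that no source used here annotates were left out, and *dim-8* was read at the locus the reference gives. Symbols, gene order and gene lengths came from the RefSeq annotation of NC12, in which all 49 genes and 9141 of 9691 rows matched a locus tag. Alternatives were pseudocounts of 0.1 and 5, no filter or an FPKM of at least 10, thresholds of 1.5-fold and 3-fold, 3 other scalings, joined rows left out and, added after the data were seen, centring within classes of gene length.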

Additional observations from a re-analysis of the deposited data

Results flagged for a closer look

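*stk-18*, the gene of an acetylase complex subunit, differed between DMSO and STS in opposite directions in the strains, by at least 1.5-fold in each. Its change with STS was -0.98 in Δ*czt-1* and 0.67 in WT, a difference of -1.66. With 1 library per group the difference was not tested. Relative to genes of like length the change was -0.94 in Δ*czt-1* and 0.26 in WT, below 1.5-fold in WT, with a difference of -1.20. With the libraries at the same FPKM sum the changes were -0.38 in Δ*czt-1* and 1.49 in WT.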

How the results depend on the processing

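No paired analysis was possible because each group is 1 library. Values below are counts of the 49 genes at least 2-fold apart, unless a median or another threshold is named. They are given without the share of all genes at each setting, so they show only how the counts depend on the processing. With a pseudocount of 0.1, 2 genes were lower with STS in WT, and 10 had a lower strain difference. With a pseudocount of 5, 3 were higher with STS in WT, 0 lower in Δ*czt-1*, 0 higher in Δ*czt-1* than WT with DMSO, and 3 had a lower strain difference. Centring on the median gene gave 2 lower in WT with STS, and the same upper quartile 1 lower in Δ*czt-1*. The same FPKM sum gave 12 higher, 0 lower and a median of 0.44 with STS in Δ*czt-1*, which turned its direction, 29 higher, 0 lower and a median of 1.07 in WT, and 2 higher and 12 lower strain differences. Centring within length classes gave 1 lower with STS in Δ*czt-1*, 3 higher and a median of -0.0099 in WT, which turned its direction, 1 higher in Δ*czt-1* than WT with DMSO and 1 lower strain difference.

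At 1.5-fold, 9 were higher and 14 lower with STS in Δ*czt-1*, 15 higher and 5 lower in WT, 10 higher and 1 lower between the strains with DMSO, 6 higher and 8 lower between them with STS, and 20 strain differences were lower. At 3-fold, 2 were higher and 0 lower in each strain, 0 higher between the strains with DMSO, and 0 strain differences were higher and 1 lower. No filter, an FPKM of at least 10 and joined rows left out changed none of these counts by over 1.5 times. Among 245 changes of single genes, 43 had another sign with the same FPKM sum and 25 with centring within length classes. Apart from the scaling, the missing replicates and the unknown depth limit every value, most of all for genes near 1 FPKM such as NCU03652.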
